A study of Rattus norvegicus with 6 samples.

Results

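The genes of the constitutive 26S proteasome were examined in cultured rat cortical neurons, untreated or exposed to the complement protein C1q. The members were the genes of the alpha and beta subunits of the core particle (Psma and Psmb symbols) and of the ATPase and non-ATPase subunits of the regulatory particle (Psmc and Psmd symbols), without Psmb8, Psmb9 and Psmb10, which encode the immunoproteasome forms. A gene was taken where a probe set named it and no other gene, and its probe set of highest mean log2(intensity + 16) over all 6 arrays stood for it. The rule gave 34 of the 14506 genes on the array, 14 of the core particle, 17 of the regulatory particle and 3 (Psmd5, Psmd9 and Psmd10) that carry Psmd symbols but encode chaperones of base assembly. Psma3 shared its probe set with a second gene and was not a member.

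The proteasome is the protease that breaks down most ubiquitin-tagged proteins in the cytosol and nucleus. Its core particle is a barrel of stacked alpha and beta rings, in which the beta subunits encoded by Psmb5, Psmb6 and Psmb7 carry the active sites, and its regulatory particle binds tagged substrates, removes the ubiquitin chain and unfolds the substrate with a ring of ATPases. Subunit genes are known to be transcribed in concert, through the factor encoded by Nfe2l1 when the protease is inhibited. In neurons the proteasome takes part in axon growth, synapse turnover and clearance of misfolded proteins.

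The cells were cortical neurons of Sprague-Dawley rat embryos of day 18, kept 3 days in NB-N2 medium, which all arrays share. Of the 6 arrays, 3 held untreated neurons and 3 held neurons exposed to 10 nM C1q over 3 h, with no vehicle or heat-inactivated control named in the labels. The labels do not say whether arrays 1, 2 and 3 of a group were separate cultures or embryos, so the p-values cover only the variation among these 6 arrays, possibly technical in part. Median intensities of the arrays ran from 147.3 to 155.4, and their number limits the precision. All 8 pan-neuronal markers, such as Tubb3 and Stmn2, lay above the intensity of 94.4 below which probe sets were not tested, and their summed intensity was 36930 to 40101 in the untreated and 37015 to 38779 in the C1q group. Of 9 microglial markers 7 lay below it, among them Aif1, Cx3cr1 and Csf1r, as did the astrocyte marker Gfap. Above it, however, lay 4 of 5 astrocyte markers, 4 of 5 oligodendrocyte lineage markers and 3 of 4 markers of radial glia and dividing cells. No marker of any of the 10 cell type lists was called between the groups, where 0.0% of all tested probe sets were called. That absence of calls therefore does not speak to the make-up of the cultures. The blood marker Hbb was the one whose groups did not overlap, beside 1.23% of all tested genes with C1q arrays all higher. It read 889.1, 1055 and 964.5 untreated and 1082, 1167 and 1216 after C1q. Its fold change was 1.19, with a 95% interval of 1.07 to 1.32 (limma, unadjusted p = 0.00334, adjusted p = 0.9999). Alas2, the other blood marker measured, had overlapping groups and a fold change of 0.987. Their sum, mostly Hbb, ran from 1035 to 1198 untreated and from 1220.0 to 1361 after C1q. The part of Hbb in the member differences was not tested. In such bulk RNA a change in the make-up of the culture and a change in RNA per cell cannot be told apart.

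No proteasome subunit gene passed the test between C1q-treated and untreated neurons, and the differences were small. The 33 members above the intensity threshold had fold changes, C1q over untreated, between 0.930 for Psmd14 and 1.05 for Psmb3. Their 95% intervals all included no change and all lay within 1.2-fold in either direction. The latter held for 7687 of the 9652 genes tested, which were not matched to the members for intensity. In limma's moderated test over 17529 probe sets, 0 members were called at an adjusted p under 0.05 and 0 had an unadjusted p under 0.05, beside 0.0% called and 2.49% with such an unadjusted p over all probe sets. Over the 9652 genes, with 1 probe set each as for the members, the latter share was 0.684%. With limma's array weights, which put most of the untreated group's weight on untreated array 3, 7 members had an unadjusted p under 0.05 and Psmd14 alone was called, at an adjusted p of 0.0421. In that fit 2.55% of all probe sets and 0.891% of genes were called, and 20.6% and 16.3% had an unadjusted p under 0.05. Over all fits the adjusted p of Psmd14 ran from 0.0421 to 1.

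Means were lower after C1q for 28 of the 33 members (84.8%), 23 with quantile normalization and 19 with median centring of the arrays. Over all probe sets 63.3% of means were lower, and over all genes 63.0%, which became 46.9% and 41.0% under those rescalings. The median log2 fold change was -0.034 for the members and -0.016 for all genes. With quantile normalization these medians were -0.016 and 0.004, and with median centring -0.007 and 0.011. The members' median minus that of all genes was -0.018 as deposited, -0.020 and -0.018 with those rescalings, -0.005 without untreated array 3 and -0.033 with array weights. In the values as deposited, C1q arrays all lay below untreated arrays for 4 members (12.1%), namely Psma4, Psma7, Psmd2 and Psmd8. This held for 4.42% of all probe sets and 3.73% of genes. They lay all above for 0 members, beside 1.3% and 1.23%. Separation of the groups was not counted under the rescalings, so it may depend on the level of single arrays.

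**Figure D1:**
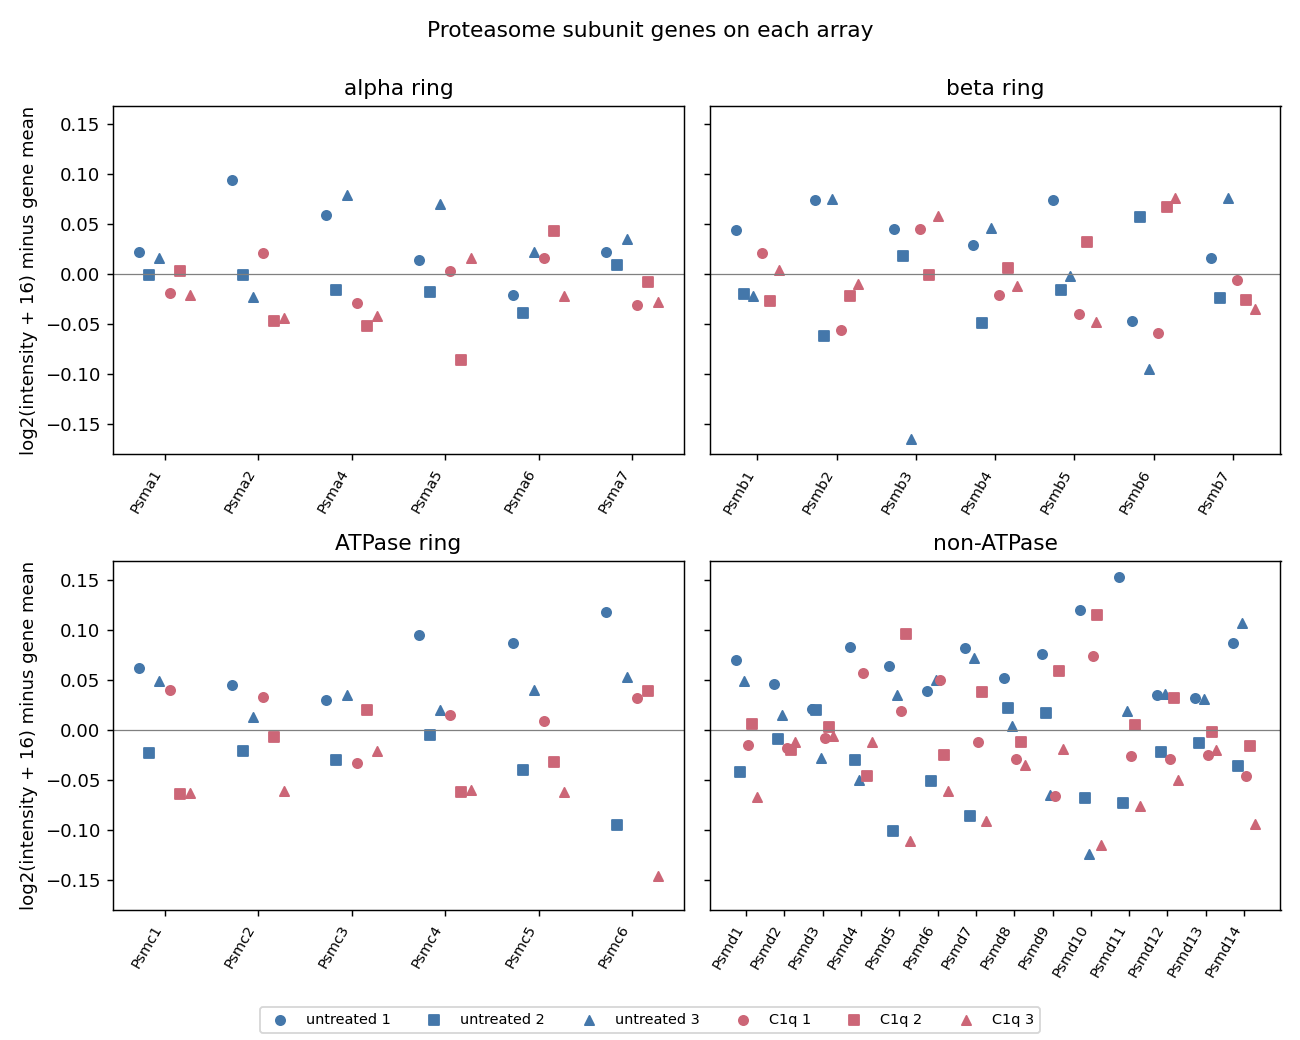
Each point is 1 array's log2(intensity + 16) for a gene minus that gene's mean over the 6 arrays, in 4 panels by subunit class, with untreated arrays in blue, C1q arrays in red and the array number as the marker shape. Most deviations are under 0.10 in size. Psmb3 on untreated array 3 lies lowest of all, and untreated array 1 is the highest of the 6 arrays for 19 of the 33 genes.

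Sequences before the start sites of 4 members are shown, picked by their place in the comparison. They are the 3 members with groups separate as deposited that the promoter table holds, Psma4, Psmd2 and Psmd8, and the member of highest fold change, Psmb3. The member of lowest fold change, Psmd14, is not in that table. The 250 bases come from RefSeq on build GRCr8, read on the gene's strand, and span chr8:64236270-64236519 (plus strand), chr10:83193537-83193786 (plus), chr11:93763389-93763638 (minus) and chr1:93608690-93608939 (minus). Capitals mark any match on either strand to ACTTCCG or CCGGAAG, words that overlap in sequence and resemble binding sites of ETS factors. They also mark matches on either strand to TGANNNNGC, a loose form of the antioxidant response element that Nfe2l1 and Nfe2l2 products bind.
Psma4: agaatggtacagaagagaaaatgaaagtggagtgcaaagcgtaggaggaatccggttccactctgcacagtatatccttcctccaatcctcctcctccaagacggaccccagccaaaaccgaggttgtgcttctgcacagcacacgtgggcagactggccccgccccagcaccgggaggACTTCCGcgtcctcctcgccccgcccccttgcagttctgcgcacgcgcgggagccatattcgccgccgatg
Psmb3: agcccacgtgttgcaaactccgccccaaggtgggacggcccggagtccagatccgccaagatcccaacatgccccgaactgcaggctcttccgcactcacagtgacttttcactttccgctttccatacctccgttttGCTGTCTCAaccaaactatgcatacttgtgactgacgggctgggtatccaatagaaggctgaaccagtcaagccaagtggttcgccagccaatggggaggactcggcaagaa
Psmd2: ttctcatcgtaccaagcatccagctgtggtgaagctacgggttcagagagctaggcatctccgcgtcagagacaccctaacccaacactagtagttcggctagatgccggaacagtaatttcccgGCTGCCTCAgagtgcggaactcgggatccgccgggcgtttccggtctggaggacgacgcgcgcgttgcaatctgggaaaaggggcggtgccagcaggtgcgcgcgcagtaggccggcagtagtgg
Psmd8: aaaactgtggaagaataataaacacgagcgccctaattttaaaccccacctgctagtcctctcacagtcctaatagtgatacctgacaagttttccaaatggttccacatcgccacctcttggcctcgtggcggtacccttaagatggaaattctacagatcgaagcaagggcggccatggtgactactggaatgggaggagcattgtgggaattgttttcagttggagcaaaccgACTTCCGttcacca

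Psma4 carried ACTTCCG at 71 to 65 bases before its start and Psmd8 at 14 to 8 bases, both on the gene's strand. Psmb3 and Psmd2 had no such word but a TGANNNNGC match on the other strand, at 112 to 104 and 125 to 117 bases before the start. Of the 34 members 29 were matched to the table. Psma7, Psmb11, Psmd6, Psmd12 and Psmd14 were not. ACTTCCG or CCGGAAG stood in 13 of the 29 (44.8%), in 6 of 12 core and 7 of 14 regulatory genes, against 18.9% of 8487 promoters of tested genes and 9.02% of all 33469 promoters. TGANNNNGC stood in 13 of the 29 (44.8%), against 37.1% and 34.7%, in 6 of 12 core and 5 of 14 regulatory genes. CCAAT, a word bound by NF-Y, stood in 15 (51.7%), against 35.6% and 34.0%. It stood in 8 of 12 core (66.7%) and 5 of 14 regulatory genes (35.7%), the latter close to the share of tested genes. The GC box GGGCGG stood in 83.3% of core and 57.1% of regulatory genes. Its share was 69.0% of members, 59.0% of tested genes and 30.5% of all promoters. Median GC content was 54.4%, 60.4% and 51.2% in that order. These words were picked from 18 searched, after their shares were known, and a match describes letters and not a bound site.

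Alpha ring genes encode the outer rings of the core barrel, which gate entry to the protease. Of the 6 tested, 5 had a lower and 1 a higher mean after C1q, and the median log2 fold change was -0.044. Psma4 read 1809, 1716 and 1835 in the untreated group, arrays 1 to 3 in order, and 1701, 1673 and 1685 in the C1q group, an order kept below. Every C1q array lay below every untreated array, by 15.4 intensity units at the closest, and the C1q arrays lay close together. The means were 1787 ± 62.4 and 1687 ± 13.8 (SD, n = 3 each), a fold change of 0.945 (95% interval 0.882 to 1.01; limma, unadjusted p = 0.0974, adjusted p = 0.9999). Psma7 read 2953, 2925 and 2979 untreated and 2846, 2891 and 2852 after C1q, so its groups were separate as well. Its means of 2952 ± 26.7 and 2863 ± 24.5 (SD, n = 3 each) gave a fold change of 0.970 (95% interval 0.913 to 1.03).

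Psma2 read 2281, 2134 and 2101 untreated and 2167, 2067 and 2072 after C1q. Untreated array 1 stood highest, and C1q array 1 lay above the other two untreated arrays. Its fold change was 0.968 (95% interval 0.901 to 1.04). Psma1 read 2100, 2067 and 2093 untreated and 2041, 2073 and 2039 after C1q, a fold change of 0.983, and overlapped through C1q array 2. Psma6, the alpha gene with a higher mean, read 2084, 2059 and 2148 untreated and 2139, 2180 and 2082 after C1q, a fold change of 1.02 (95% interval 0.952 to 1.09). A second, dimmer Psma6 probe set had a fold change of 0.958, so that the sign for this gene depended on the probe set. Psma5 had a fold change of 0.970 and overlapping groups.

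Beta ring genes encode the inner rings, including the active-site subunits. Of 7 tested, 5 means were lower and 2 higher after C1q, and the median log2 fold change was -0.018. Psmb5, whose product holds the chymotrypsin-like site targeted by bortezomib, read 2017, 1894 and 1912 untreated and 1862, 1958 and 1852 after C1q. C1q array 2 lay within the untreated range and the others below it. The means were 1941 ± 66.4 and 1891 ± 58.9 (SD, n = 3 each), a fold change of 0.974 (95% interval 0.907 to 1.05; limma, adjusted p = 0.9999).

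Psmb6, whose product holds the caspase-like site, read 1075, 1156 and 1038 untreated and 1065, 1164 and 1172 after C1q. Each group held both low and high arrays, and the fold change of 1.04 had a 95% interval from 0.952 to 1.14. Its second probe set gave 0.985. Psmb7, whose product holds the trypsin-like site, read 3474, 3378 and 3621 untreated and 3421, 3374 and 3353 after C1q. Only C1q array 1 entered the untreated range, and the fold change was 0.969 (95% interval 0.909 to 1.03). The 3 catalytic genes therefore lay on both sides of no change, each with an interval that included it.

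Psmb3 had the highest fold change of the members, 1.05 (95% interval 0.955 to 1.15). It read 1031, 1012 and 889.9 untreated and 1031, 998.5 and 1041 after C1q. Untreated array 3 stood below the other 5 arrays. Without that array the log2 fold change was 0.003 in place of 0.068. Psmb2 read 1401, 1274 and 1403 untreated and 1280, 1310 and 1321 after C1q, with untreated array 2 lowest of all, and a fold change of 0.960 (95% interval 0.888 to 1.04). Psmb1 and Psmb4 had fold changes of 0.999 and 0.988. Psmb11, which encodes the beta subunit of the thymus-specific core particle, was the member below the intensity threshold and was not tested. It read 50.1, 49.4 and 55.9 untreated and 51.1, 57.0 and 68.8 after C1q, values at which the share of background is unknown.

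**Figure D2:**
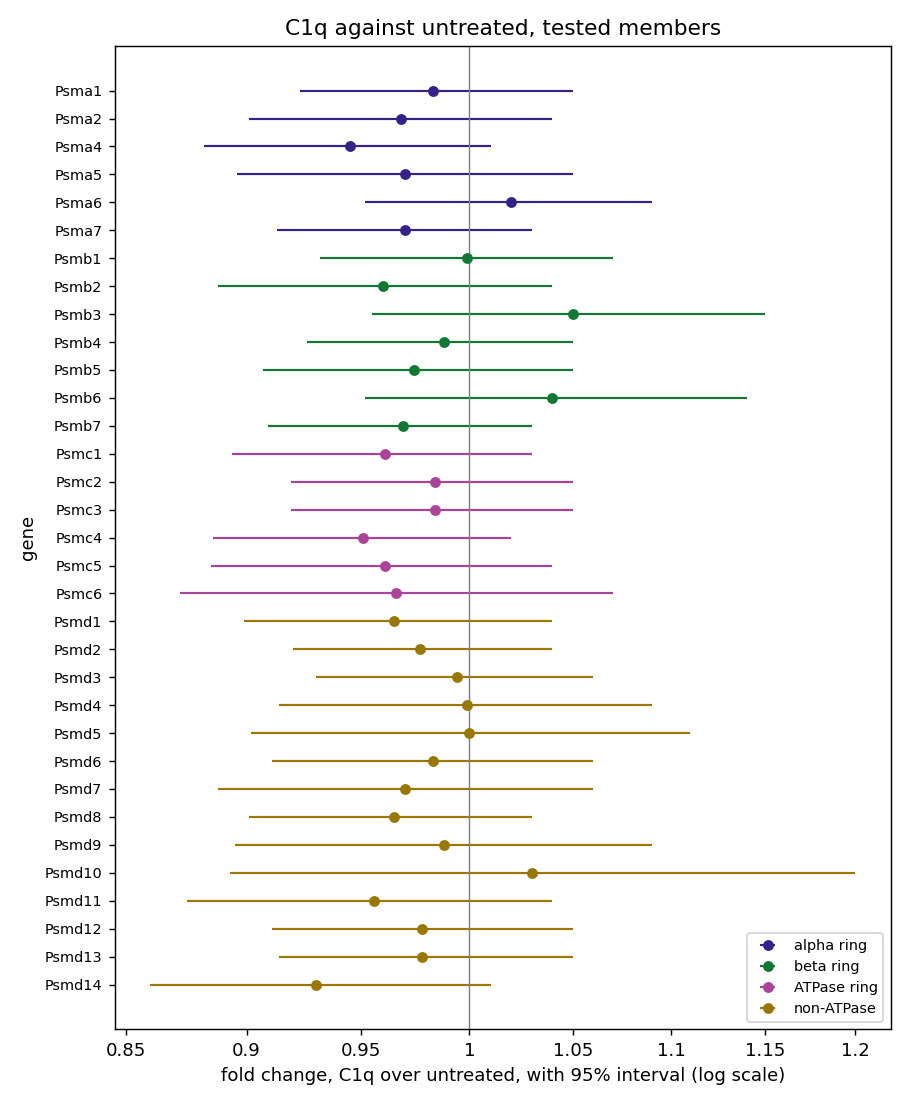
Points give the fold change, C1q over untreated, of the 33 tested members on a log axis, and bars give limma's 95% interval, coloured by subunit class. Every bar crosses 1, the points run from 0.930 for Psmd14 to 1.05 for Psmb3, and the widest bars belong to Psmd10, the dimmest member tested.

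The ATPase ring genes Psmc1 to Psmc6 encode the motor that unfolds substrates and threads them into the core. All 6 means were lower after C1q as deposited, with log2 fold changes between -0.073 and -0.023 and a median of -0.054, while Psmc2 and Psmc3 turned to 0.003 each with median centring. Psmc4 read 2299, 2144 and 2180 untreated and 2173, 2060 and 2062 after C1q. C1q array 1 lay between untreated arrays 2 and 3, and the other C1q arrays lay below all untreated ones. The fold change was 0.951 (95% interval 0.886 to 1.02; limma, unadjusted p = 0.147, adjusted p = 0.9999), and the second Psmc4 probe set gave 0.970.

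Psmc1 read 2742, 2584 and 2718 untreated and 2701, 2512 and 2514 after C1q, a fold change of 0.961. C1q array 1 again stood within the untreated range. Psmc2 read 2216, 2117 and 2168 untreated and 2199, 2138 and 2058 after C1q, and Psmc3 read 1702, 1632 and 1708 untreated and 1628, 1690 and 1643 after C1q. Both had a fold change of 0.984, and their groups overlapped widely. Psmc5 and Psmc6 had fold changes of 0.961 and 0.966. Relative to its mean, Psmc6 spread the most of the ATPase genes within its groups, with SDs of 108.1 untreated and 99.3 after C1q about means of 1432 and 1382.

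The non-ATPase subunits of the regulatory particle bind ubiquitin, form the scaffold of the base and make up the lid. Of the 11 such genes with Psmd symbols, all means were lower after C1q as deposited. The median log2 fold change was -0.034, with values from -0.105 to -0.001. Psmd14, whose product is the metalloprotease that cuts ubiquitin chains off substrates, had the lowest fold change of all members. It read 1735, 1593 and 1760 untreated and 1581, 1615 and 1529 after C1q. Untreated array 2 lay among the C1q arrays, and the other untreated arrays stood above them. The means were 1696 ± 90.1 and 1575 ± 43.3 (SD, n = 3 each), a fold change of 0.930 (95% interval 0.860 to 1.01; limma, unadjusted p = 0.0656, adjusted p = 0.9999).

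Psmd2, a scaffold subunit of the base, read 3376, 3251 and 3304 untreated and 3230, 3225 and 3243 after C1q. The groups were separate, though C1q array 3 and untreated array 2 differed by 7.8 units, and the fold change was 0.977 (95% interval 0.920 to 1.04). Psmd8, a lid subunit, read 1331, 1303 and 1287 untreated and 1257, 1273 and 1252 after C1q, again without overlap, at a fold change of 0.965 (95% interval 0.901 to 1.03). The second Psmd8 probe set, at means of 293.2 and 317.9, had a fold change of 1.08, opposite in sign to the brighter one. Psmd11, a lid subunit, read 1962, 1675 and 1786 untreated and 1731, 1769 and 1671 after C1q. Untreated array 1 stood apart above the rest, and the fold change was 0.956 (95% interval 0.875 to 1.04).

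The other 7 subunit genes of this class had overlapping groups and fold changes from 0.965 to 0.999. The scaffold gene Psmd1 was at 0.965, the ubiquitin receptor gene Psmd4 at 0.999, and the lid genes Psmd3, Psmd6, Psmd7, Psmd12 and Psmd13 at 0.994, 0.983, 0.970, 0.978 and 0.978.

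The 3 chaperone genes help assemble the base and leave the finished particle. Psmd10, also called gankyrin, read 236.8, 205.9 and 197.4 untreated and 228.9, 235.8 and 198.7 after C1q. The arrays were intermixed, and the fold change of 1.03 had the widest interval among members, 0.893 to 1.2. Psmd5 read 735.0, 654.0 and 720.2 untreated and 711.9, 752.1 and 649.5 after C1q, a fold change of 1.00, and Psmd9 had a fold change of 0.988.

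The core and regulatory particle genes had close median fold changes, and their difference on single arrays overlapped between the groups. The median log2 fold change was -0.038 over 13 core and -0.045 over 17 regulatory genes, a difference of 0.007. On single arrays the core median minus the regulatory median, both relative to each gene's mean, was -0.033, 0.014 and -0.013 untreated and -0.006, -0.001 and 0.040 after C1q. Those values overlapped between the groups and varied with an SD of 0.0236 among untreated and 0.0252 among C1q arrays. They are differences of medians on each array and not of fold changes, so these SDs do not measure the spread of the 0.007. Lower means numbered 10 of 13 core and 17 of 17 regulatory genes as deposited, 8 and 15 with quantile normalization, and 7 and 12 with median centring. The regulatory count covers Psmc and Psmd symbols only. It leaves out Adrm1 and Sem1, listed below with the proteasome-bound genes, whose fold changes were 1.02 and 0.933. Genes of 1 complex measured on the same arrays are not independent replicates, so no test was made over them. With the base chaperones counted as regulatory the difference of medians was -0.005.

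The member median differed more between untreated arrays 1 and 2 than between the groups. Relative to each gene's mean, the member median was 0.052, -0.022 and 0.031 in the untreated and -0.013, -0.002 and -0.036 in the C1q group. The same medians over all genes were 0.059, -0.036 and 0.004 untreated and -0.009, 0.017 and -0.030 after C1q. Untreated array 1 was thus high and untreated array 2 low for the members and for the array as a whole. Untreated array 2 was the lowest of its group for 24 of 33 members (72.7%) and for 58.0% of all genes. The median within-group SD was 0.050 log2 for members and 0.074 for all genes. These sets were not matched for intensity. Even Psmd10, the dimmest member tested, had means of 213.4 untreated and 221.1 after C1q, above the highest array median of 155.4.

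**Figure D3:**
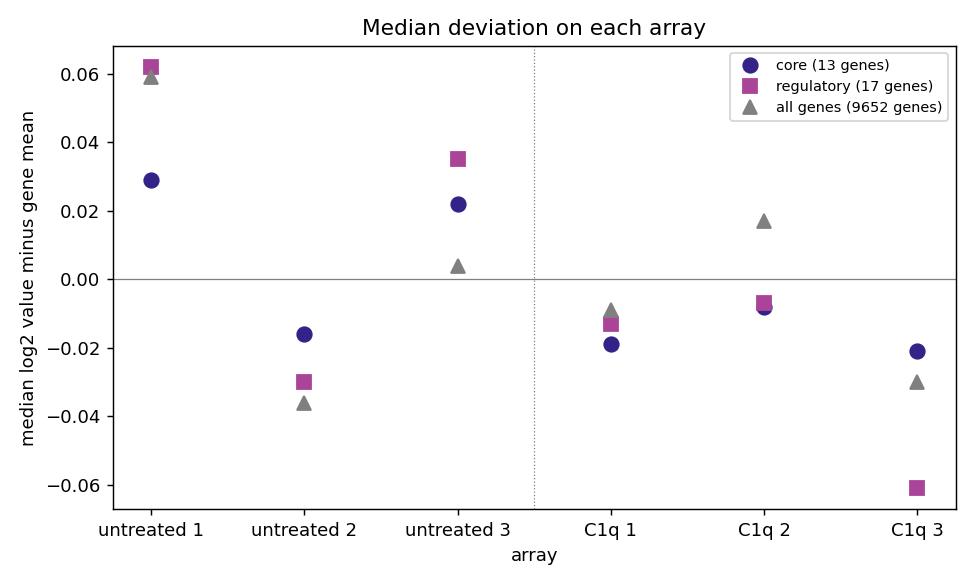
Each point is the median, over core, regulatory or all tested genes, of log2 values relative to the gene's mean over 6 arrays, for the array named on the x axis. Regulatory genes run from 0.062 on untreated array 1 to -0.061 on C1q array 3, and untreated array 2 lies below C1q array 2 in all 3 sets.

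The member medians moved with the arrays kept, in part together with those of all genes. Without untreated array 1 the median log2 fold change of core genes was -0.011 and that of regulatory genes -0.020, beside 0.007 over all genes. Over all genes 44.7% of means were then lower, against 72.7% of members. Without untreated array 3 the member median was -0.025 beside -0.019 over all genes. Without C1q array 3 the values were -0.021 and -0.005, with 14 of 17 regulatory means lower. The member median minus that of all genes was -0.018 as deposited and -0.022 without untreated array 1. It was -0.005 without untreated array 3 and -0.016 without C1q array 3. The part that these arrays play in the member differences was not tested further.

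**Figure D4:**
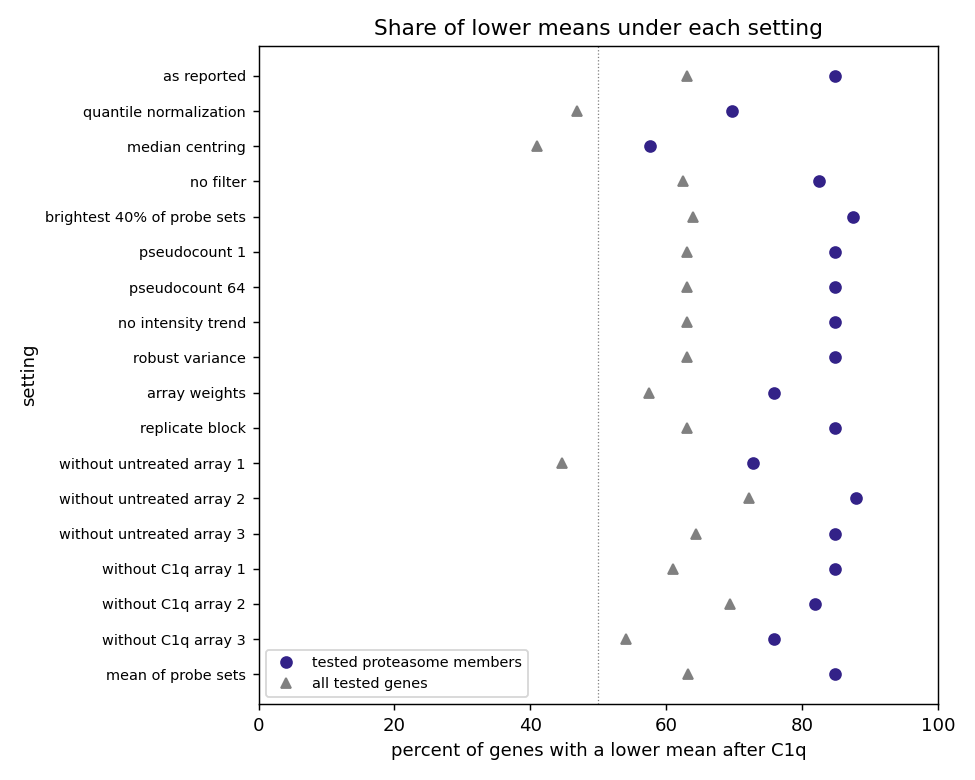
Circles give the percent of tested proteasome members, and triangles the percent of all tested genes, with a lower mean after C1q under each way of processing the values. The member share runs from 57.6% with median centring to 87.9% without untreated array 2, and the share of all genes from 41.0% to 72.1% at the same settings. Without C1q array 2 the member share is lower than as reported, at 81.8%, and the share of all genes higher, at 69.4%.

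Genes that work with the proteasome did not pass either, in a test that called 0.0% of all probe sets. Of 45 such genes listed, none of them members, 35 had a probe set of their own and 32 lay above the threshold. Means were lower for 21 of these and higher for 11, beside 63.0% lower over all tested genes. The immunoproteasome genes Psmb8 and Psmb9 lay below the threshold, at means of 77.3 and 72.9 untreated and 71.6 and 71.2 after C1q. The C1q arrays of Psmb8 lay below its untreated arrays, by 0.406 units at the closest, but the gene was not tested. Psmb10 had a fold change of 0.991. Of 4 activator genes 3 means were lower, with Psme3, which encodes the nuclear activator subunit, at 2531, 2475 and 2504 untreated and 2343, 2421 and 2410 after C1q. Its groups did not overlap as deposited, beside 3.73% of all tested genes with C1q arrays all lower. The fold change was 0.955 (95% interval 0.898 to 1.02). Psme1 had a fold change of 0.947.

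Of 4 assembly factor genes 3 means were lower. Psmg1, which encodes a chaperone of the alpha ring, read 1318, 1283 and 1389 untreated and 1260, 1236 and 1245 after C1q, also without overlap. Its fold change was 0.939 (95% interval 0.872 to 1.01), and it was called with array weights (limma, adjusted p = 0.0492) but in no other fit. Psmg4 had a fold change of 0.926. Of 10 receptor, deubiquitinase and shuttle genes 6 means were lower and 4 higher, with Usp14, a deubiquitinase, at a fold change of 0.951. Ubqln2, a shuttle for tagged proteins, had a fold change of 1.06 and an adjusted p of 0.0473 with array weights alone.

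Nfe2l1, the transcription factor gene that controls subunit expression, read 1447, 1360 and 1408 untreated and 1434, 1388 and 1430 after C1q. The groups overlapped, and the fold change was 1.01 (95% interval 0.940 to 1.08). Of 3 tested genes of this control pathway 2 means were higher, with Ddi2, which encodes the protease that activates the factor, at 1.02, and Ngly1, which deglycosylates it, at 0.936, a sign that turned without untreated array 1. Nfe2l2 lay below the threshold. Both ubiquitin-activating enzyme genes tested, Uba1 and Uba6, had lower means, at fold changes of 0.971 and 0.968. Of 8 genes of the p97 unfoldase machinery 5 means were lower, with Ubxn4 and Ubxn1 both at 0.941. Psme3 and Psmg1 were the only tested genes of these lists whose groups did not overlap. The lists held 0 genes with an unadjusted p under 0.05 in limma's test without array weights, beside 0.684% of all tested genes.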

How the data were processed

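RNA of untreated and C1q-treated neurons was measured on 1-colour Affymetrix arrays, 3 a group, with column-extracted total RNA and biotinylated cRNA, per the labels' protocols. The deposited table gives linear intensity values for 29215 probe sets, and how the authors summarised and normalized them is not given in the sources used here. No scanner files, detection calls or batch labels were used. The platform annotation named 1 gene for 15310 probe sets, several for 323 and none for 13582, and 15279 of the first matched RefSeq on GRCr8, with 0 symbols changed. Array medians of log2(intensity + 16) differed by 0.07, under the limit of 0.1, so no rescaling was applied. The added 16 shrinks fold changes of dim genes. The brightest 60% by mean over all arrays (intensity 94.4 or more) were tested in limma 3.58.1 under R 4.3.3 by lmFit and eBayes, with the variance trended on intensity, Benjamini-Hochberg adjusted over 17529 probe sets, with calls under 0.05. All intervals are 95% intervals of this fit. The procedure was tested on simulated data, made by adding known changes to deposited values. Those added changes were all larger than any member's, so this does not speak to changes as small as the members'.

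The members and lists were chosen with earlier results of these data known. Members given on each array were the catalytic subunits, the 2 highest and 2 lowest fold changes per class, those whose groups did not overlap and those below the filter, and each companion list gave its 2 genes of smallest p. Nfe2l1, Nfe2l2, Psmb8, Psmb9, the other members and second probe sets were given besides. Alternatives were the normalization, filter, pseudocount, variance model, array weights, replicate block, leaving out each array and averaging a gene's probe sets.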

Additional observations from a re-analysis of the deposited data

How the results depend on the processing

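The count of called members was 0 in all fits but the one with array weights, which called 1, Psmd14, and 130 higher and 317 lower of all probe sets. Those weights were 0.362, 0.335 and 5.51 for untreated arrays 1 to 3. With a replicate block 9 probe sets were called higher and 0 lower, none of them a member, and this changed no other call. Same-numbered arrays did not deviate together, with correlations of 0.014, -0.453 and -0.134 across probe sets, so the numbers were not taken as pairs. Without the filter 1 probe set was called lower. Fits without a single array had 0 to 28 called higher and 0 to 10 called lower, all without untreated array 2, and 24 to 29 members with a lower mean. The core median of log2 fold changes, -0.038 as deposited, was -0.016 with quantile normalization, -0.011 with median centring and between -0.051 and -0.011 without one array. The median difference between core and regulatory genes lay between 0.006 and 0.023 when an array was left out, 0.018 with array weights and -0.004 with probe sets averaged. Of 20 named members tested, 3 had the other sign with array weights, 3 with median centring, 2 with probe sets averaged and 1 in each of the fits without C1q array 1, 2 or 3 or untreated array 2 or 3, none of them called. Outside the members, Ngly1 and Psmb10 ran from -0.207 to 0.007 and from -0.045 to 0.017 in log2 fold change without single arrays. Signal over background is unknown, which limits the dim members most, above all Psmb11.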
